A study of Homo sapiens with 6 samples.

Results

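Ethanol treatment was set against no treatment at day 1 in syk-transfected U373 cells, with 1 array on each side. U373 is a human glioblastoma cell line. The ethanol array carried transfected cells given ethanol at day 1, and its control carried transfected cells given nothing at day 1. The pair was chosen by the array titles and makes up 2 of the 6 arrays of the series. The other 4 arrays carried transfected cells left untreated at day 2, transfected cells given ethanol and the inducer PonA at day 1 and at day 2, and untransfected, untreated cells at day 1. All 5 transfected groups share the syk construct, which the study placed in an ecdysone-inducible expression system. PonA, ponasterone A, is the steroid that switches such a system on, and ethanol is its usual solvent, so ethanol alone is the vehicle control of the induction. The labels give 10 µM PonA for 6 to 48 hours for the series as a whole. They give no dose or hours for the ethanol, no clone or pool for the transfected cells, and nothing on whether the cultures were independent.

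Ethanol is known to act on many membrane receptors and to be oxidised by alcohol and aldehyde dehydrogenases. Cells under nutrient or protein-folding stress slow translation through kinases that phosphorylate the initiation factor eIF2α. This shift favours translation of the transcription factor ATF4, which then binds the promoters of genes for amino acid synthesis, amino acid uptake and tRNA charging. The set of events is called the integrated stress response, and its amino acid branch is read in most cells by ASNS, the enzyme that makes asparagine.

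Genes of amino acid supply were mostly higher on the ethanol array. Of 37 genes compared from 2 lists of that pathway, 33 were higher with ethanol than without, which is 89.2%, against 49.1% of all 5774 genes compared. The lists were chosen with earlier results of these data known, so this share is a description and no independent evidence. Of the pair, only the ethanol array had CBS, CTH and ATF3 above the limit for dim signals. They are among the 33 and entered through their high side. ASNS was 2.52-fold, PCK2 3.15-fold, NUPR1 2.09-fold and ATF4 2.04-fold higher with ethanol. The ETS factor gene ETV5 was 2.58-fold and the ERK phosphatase gene DUSP6 2.24-fold higher. Lists of alcohol metabolism, ethanol-sensitive receptors, chaperones and sterol synthesis had median differences between -0.21 and 0.00 on the log2 scale. In the DNA replication list 26 of 31 genes were lower, beside 2938 of all 5774 genes, with a median of -0.19. No condition was repeated, so these are differences between arrays with no replicate check, and the number of arrays limits their precision. In RNA from whole cultures, a difference in every cell and a difference in some of the cells cannot be told apart.

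The values are MAS5 signals, Affymetrix's summary of brightness per probe set, on a linear scale that the authors had set to a common level per array. Signals under an array's 40th percentile were raised to that percentile, here called the floor, which was 25.4 on the ethanol array, 26.3 on the untreated day 1 array and 23.2 on the untreated day 2 array. A fold against a value under the floor is a lower bound. GAPDH 3' to 5' ratios were 0.943 with ethanol and 0.939 untreated at day 1. The ethanol array had lower control signals than its partner. Its spike-in probe sets had a geometric mean of 271 against 474, with 405 untreated at day 2 and 501 and 352 with PonA at day 1 and day 2. Its 18S ribosomal RNA probe sets stood at 28.03 against 96.2, with 81.0 untreated at day 2, 101 with PonA at day 1 and 30.9 with PonA at day 2. The part of these control signals in the differences below was not tested. Of 11 astroglial marker genes on the array 9 were above the floor, with AQP4 and SLC1A2 under it on all 6 arrays. The summed astroglial signal was 10662 with ethanol and 11855 without. Of 12 blood cell markers 5 exceeded the floor on 1 or both arrays of the pair, CD68 at 226 with ethanol and 197 untreated among them, with a summed signal of 443 and 434, while the defining markers PTPRC, CD3D, CD14 and SPI1 were under the floor on every array. Of 6 endothelial markers PECAM1 alone exceeded it, at 47.3 untreated and 19.5 with ethanol, and VWF, CDH5 and TIE1 were under it on every array. Other lineages had more signal. Of 11 neuronal markers 6 exceeded the floor, with sums of 1228 with ethanol and 1083 untreated. Of 9 fibroblast or epithelial markers 4 did, with 2348 and 2507, and of 7 oligodendrocyte markers 4, with 842 and 899.

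Few probe sets separated the pair. A probe set was compared where either array exceeded its floor. Of 8015 compared, 175 were at least 2-fold apart (2.18%), 83 of them higher with ethanol (1.04%) and 92 lower (1.15%). With a loess correction of the pair the split was 96 higher and 69 lower. The median difference over all compared was -0.01. Untreated cells at day 2 differed from untreated cells at day 1 at 255 of 8003 probe sets (3.19%), with 83 higher (1.04%) and 172 lower (2.15%), so ethanol and no treatment on the same day were closer than no treatment on 2 days. Ethanol against untreated day 2 gave 330 of 8002 (4.12%), 211 higher (2.64%) and 119 lower (1.49%). Among probe sets above the floor on both arrays, the SD of the log2 difference was 0.375 for ethanol against untreated day 1, 0.412 for the untreated arrays against each other and 0.444 for ethanol against untreated day 2.

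**Figure D1:**
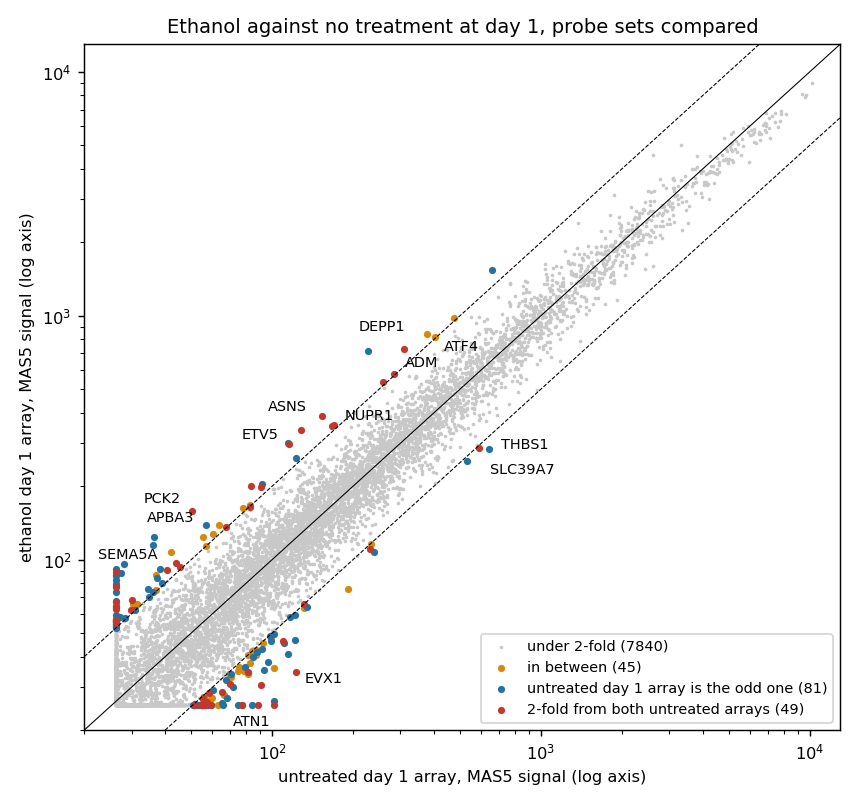
MAS5 signal of the 8015 probe sets compared, untreated day 1 array on the x axis and ethanol day 1 array on the y axis, both logarithmic and raised to each array's floor; the solid line marks equal signal and the dashed lines a 2-fold difference. Of the 175 points outside the dashed lines, 49 (red) were also 2-fold from the untreated day 2 array, and bright points outside lie mostly above the line.

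The untreated day 2 array served to ask on which side of the pair the unusual value lay. The 2 comparisons share the ethanol array, and the untreated day 2 array differs also by day. The 175 probe sets were chosen by their distance from untreated day 1. The counts are therefore descriptions and do not settle which array was unusual. Of the 175 probe sets, 49 (28%) were at least 2-fold from both untreated arrays in the same direction, 29 higher and 20 lower with ethanol, which is 0.611% of those compared. A larger number, 81 (46.3%), had the untreated day 2 value nearer to ethanol than to untreated day 1, and are here labelled untreated day 1 the odd one. These were 36 higher and 45 lower and made up 1.01% of those compared. The remaining 45 lay in between. Counted by gene, with 1 probe set each, 116 of 5774 were at least 2-fold apart (2.01%), 58 in each direction (1%), and 37 of them (0.641%) stood 2-fold from both untreated arrays while 50 (0.866%) had the untreated day 1 array as the odd one.

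**Figure D2:**
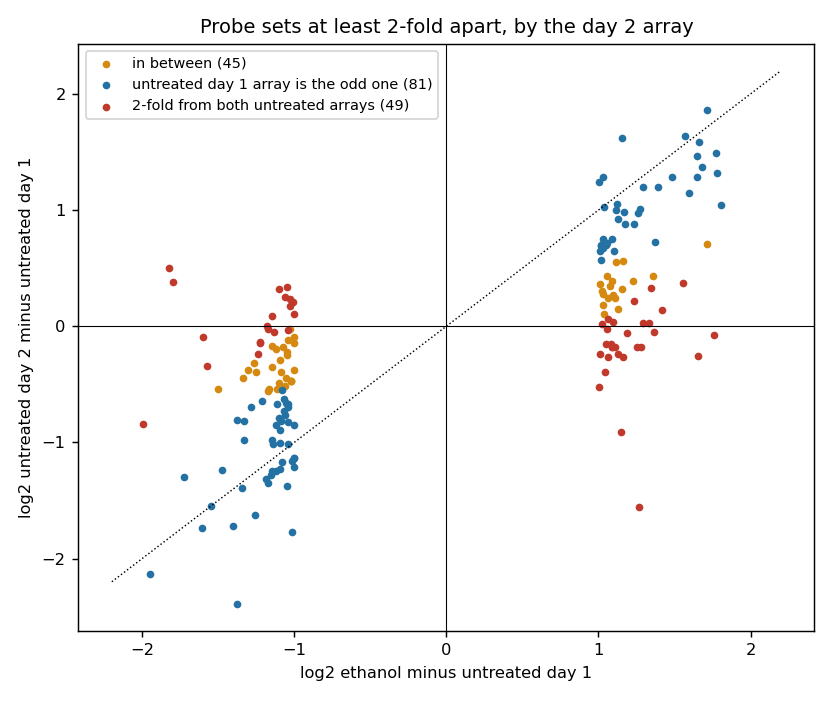
Each point is 1 of the 175 probe sets at least 2-fold apart, with the log2 difference of ethanol from untreated day 1 on the x axis and of untreated day 2 from untreated day 1 on the y axis. On the dotted diagonal untreated day 2 equals ethanol; the 81 blue points have untreated day 1 as the odd array, and the 49 red points near or across the horizontal line are 2-fold from both untreated arrays.

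Distance was mostly a property of dim probe sets. The share at least 2-fold apart was 3.66% at a mean signal under 50 and 3.85% from 50 to 100, against 0.884% from 100 to 200, 0.853% from 200 to 500 and 0.422% at 500 or more. At a mean signal of 200 or more, 17 of 2592 probe sets were 2-fold apart (0.656%), 14 higher and 3 lower with ethanol. Below 200 the count was 69 higher and 89 lower of 5423 (2.91%). The bright probe sets thus leaned to higher signal with ethanol and the dim ones slightly to lower.

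Among 23 genes fixed for the integrated stress and amino acid response, 19 were on the array and all of these were compared. 17 were higher and 2 lower with ethanol, beside 49.1% of all genes higher, and the median log2 difference was 0.63 against -0.01 over all genes. 4 were at least 2-fold higher and none lower, beside 1% of all genes in each direction. Counted by probe set, 23 of 25 were higher. Against the untreated day 2 array the median was 0.68, and 16 of the 19 genes were higher than on both untreated arrays, beside 35.2% of all genes. PCK2, VEGFA, ATF3 and GADD45A of this list also belong to other lists. CBS, CTH and ATF3 exceeded the floor on the ethanol array of the pair and not on the untreated array. They are among the 17 and the 16 and entered through their high side.

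ASNS, asparagine synthetase, gave 387 signal units with ethanol, 154 untreated at day 1, 157 untreated at day 2 and 163 in untransfected cells. The arrays with both ethanol and PonA gave 345 at day 1 and 407 at day 2. All 3 arrays with ethanol in the medium therefore read ASNS at more than 2 times the 3 arrays without it, and the groups did not overlap. The share of all genes that split the arrays this way was not counted, so this split and those below are descriptions. The 3 arrays with ethanol include those with PonA, and the parts of ethanol and PonA were not tested. The ratio of ASNS on the ethanol array was 2.52-fold to the untreated array of day 1 and 2.47-fold to that of day 2.

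ATF4, the transcription factor of this response, gave 822 with ethanol, 403 untreated at day 1, 458 untreated at day 2 and 418 in untransfected cells, and 752 and 879 with ethanol and PonA at day 1 and day 2. Its arrays fell into the same high and low sets as those of ASNS. It was 2.04-fold over untreated day 1 and 1.79-fold over untreated day 2. CEBPG encodes a bZIP partner of ATF4 and gave 160 with ethanol, 82.8 and 94.9 untreated, 128 untransfected and 171 and 194 with ethanol and PonA. It too was highest on the 3 arrays with ethanol.

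PCK2, the mitochondrial form of phosphoenolpyruvate carboxykinase, gave 159 with ethanol against 50.4 untreated at day 1, 42.3 untreated at day 2 and 53.3 in untransfected cells. With ethanol and PonA it gave 78.7 at day 1 and 61.9 at day 2, above the arrays without ethanol but well below ethanol alone. NUPR1, a small stress-induced chromatin protein, had 2 probe sets. The brighter NUPR1 probe set gave 356 with ethanol, 170 and 141 untreated, 40.5 untransfected and 229 and 218 with ethanol and PonA. The second NUPR1 probe set gave 341 with ethanol against 128 and 141 untreated, a 2.67-fold difference. Both NUPR1 probe sets and PCK2 were highest on the array with ethanol alone.

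DDIT3 encodes the stress factor CHOP and fell just short of a 2-fold difference. It gave 399 with ethanol, 201 untreated at day 1, 263 untreated at day 2, 86.4 untransfected, and 181 and 441 with ethanol and PonA at day 1 and day 2. Unlike ASNS and ATF4, DDIT3 was not higher on the ethanol and PonA array of day 1 than untreated. Its second probe set gave 351.2 with ethanol, 196 on each untreated array, and 191 and 287 with ethanol and PonA, so it was highest with ethanol alone, whereas the first was highest with ethanol and PonA at day 2.

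The serine and one-carbon enzymes were all higher with ethanol. PHGDH, the first enzyme of serine synthesis, gave 3112 with ethanol, 1862 and 1909 untreated, 1812 untransfected and 1992 and 2103 with ethanol and PonA, a log2 difference of 0.74. Its ethanol value was the single high one. PSPH, the last enzyme of that path, gave 239 against 137 and 168 untreated, but 312 in untransfected cells, so its order did not follow ethanol. MTHFD2, a mitochondrial folate enzyme, gave 1197 with ethanol, 692 and 769.9 untreated, 507 untransfected and 1052 and 1224 with ethanol and PonA. MTHFD2 separated the arrays with ethanol from those without, as ASNS did. SHMT2, which splits serine for one-carbon units, differed by 0.33.

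The remaining members showed smaller or less even differences. CBS, of cysteine synthesis, was 0.63 higher on the log2 scale but only 40.6 with ethanol and under the floor untreated, so that this is a lower bound. DDIT4, an inhibitor of mTORC1, was 0.58 higher than untreated day 1 and 0.21 higher than untreated day 2. VEGFA differed by 0.25 and CEBPB by 0.13. GADD45A stood at -0.00 with 112 on both arrays. PPP1R15A, which recruits the phosphatase that reverses eIF2α phosphorylation, was the lowest member at -0.19 against untreated day 1 and stood at 0.81 against untreated day 2.

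**Figure D3:**
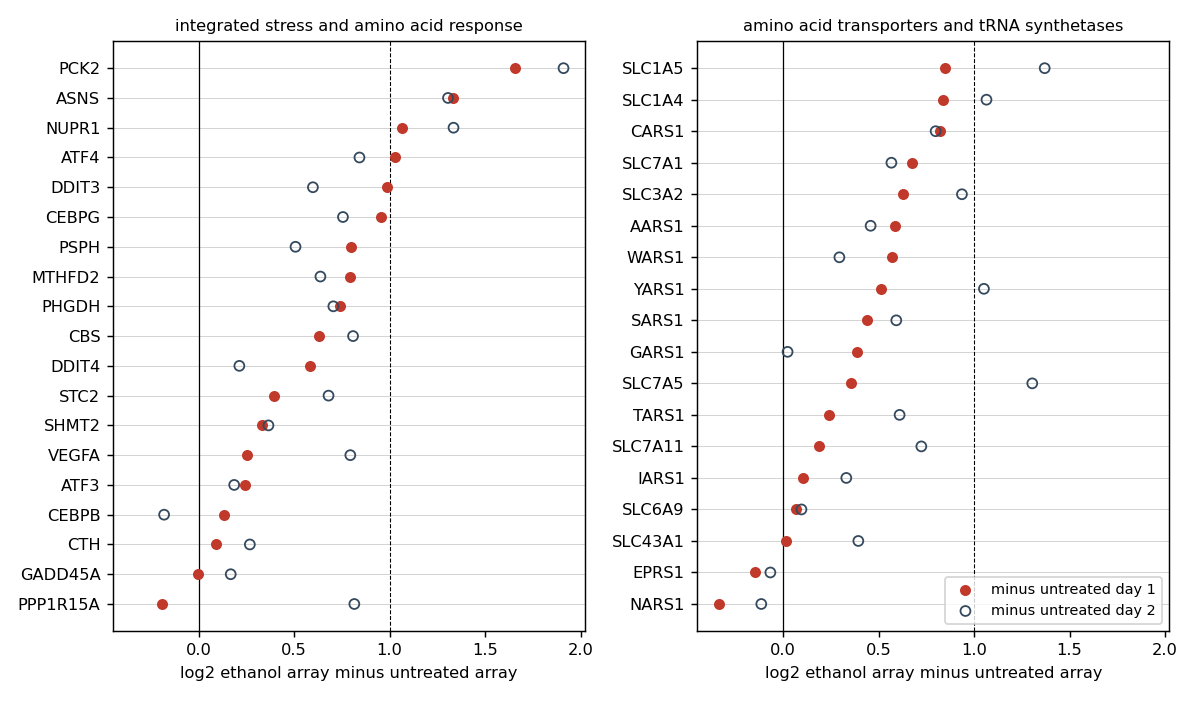
Log2 difference of the ethanol array from the untreated day 1 array (filled) and from the untreated day 2 array (open) for the 19 and 18 genes compared of the stress response list (left) and of the list of amino acid transporters and tRNA synthetases (right); the dashed line marks 2-fold. 33 of the 37 filled points and most open points lie to the right of 0.

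Of 21 genes fixed for amino acid transport and tRNA charging, 18 were compared. 16 were higher and 2 lower with ethanol, beside 49.1% of all genes higher. The median log2 difference was 0.41, and none of the 18 was 2-fold apart, beside 2.01% of all genes. The same number, 16, were higher than on both untreated arrays, and the median against untreated day 2 was 0.58. Together with the stress response list, 32 of 37 genes (86.5%) were above both untreated arrays, against 35.2% of all genes. As the lists were chosen with earlier results known, and CBS, CTH and ATF3 are counted, this share too is a description.

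The uptake genes were mostly bright. SLC1A5, the glutamine carrier ASCT2, was the highest member, at 989.9 with ethanol, 549 and 383 untreated, 489 untransfected, and 675 and 645 with ethanol and PonA. SLC1A4, a carrier of alanine, serine and cysteine, gave 249 with ethanol, 139 and 119 untreated, 182 untransfected, and 213 and 240.04 with ethanol and PonA. SLC3A2, the shared heavy chain of several carriers, gave 969.8 against 628 and 507. All 3 were higher on each array with ethanol than on any array without it. SLC7A1, a carrier of arginine and lysine, followed at 258 against 161 and 174. SLC7A5, the leucine carrier LAT1, differed by 0.36 from untreated day 1 and by 1.30 from untreated day 2, since its untreated value was 1054 at day 1 and 546 at day 2. SLC7A11, SLC6A9 and SLC43A1 differed by 0.19 or less from untreated day 1.

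The tRNA synthetases load amino acids onto their tRNAs. CARS1, for cysteine, gave 493 with ethanol, 278 and 283 untreated, 231 untransfected, and 382 and 447 with ethanol and PonA, a log2 difference of 0.82. AARS1, for alanine, gave 1137 against 757 and 827, and WARS1, for tryptophan, gave 368 against 248 and 300.3. YARS1, SARS1 and GARS1 differed by 0.51, 0.44 and 0.39. TARS1 and IARS1 differed by 0.24 and 0.10. EPRS1, the glutamate and proline enzyme, and NARS1, the asparagine enzyme, were the lower members, at -0.15 and -0.34. The NARS1 signal was 467 with ethanol, 589 untreated at day 1 and 505 untreated at day 2.

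BCAT1, the cytosolic enzyme that starts breakdown of branched-chain amino acids, was on none of these lists and was picked out after its values were seen. It gave 199 with ethanol, 90.9 and 76.8 untreated, 85.1 untransfected, and 355 and 257 with ethanol and PonA, so that the 3 arrays with ethanol were above the 3 without.

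ATF4 acts through the C/EBP-ATF response element, whose letters were taken here as TGATGNAAN on either strand. RefSeq promoter windows (GRCh38.p14, 250 bases before to 50 after each start site) were given for 14 genes of the stress response list and 16 of the transport and charging list. The letters were present in 9 of these 30 windows (30%) and in 3.61% of all 35116 windows. In the stress response list the windows of ATF3 and ASNS held it, and in the other list those of SLC3A2, SLC7A1, AARS1, CARS1, IARS1, NARS1 and TARS1. Of the 9 genes 8 were higher with ethanol, among them ATF3, which exceeded the floor of the pair only on the ethanol array. The median difference of the 9 was 0.59, beside 0.57 for the 21 genes whose windows lacked the letters. The match therefore did not sort the members by the size of their difference. Both lists name genes known to respond to ATF4, so this share is no independent evidence. The cyclic AMP element TGACGTCA (1.85% of all windows) was in 1 window of the stress response list and 0 of the other. The AP-1 site TGANTCA (7.71%) was in 1 window of each, and the E-box CACGTG (7.26%) in 1 and 3. All motifs were searched on both strands with no masking. Of the 9 list windows with the ATF4 letters, SLC3A2 also held the AP-1 string and IARS1 the E-box. The window of BCAT1, outside the lists, held the ATF4 letters and the E-box.

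The stretches that hold the match are shown for the list members with it and for BCAT1, which was picked after its values were seen. The match is by letters only, and binding of ATF4 was not tested. The match is in capitals, 5′ to 3′ on the gene's strand, from the RefSeq windows; where capitals end in ATCA the element runs on the opposite strand.
ASNS (chr7:97872458-97872486, minus strand): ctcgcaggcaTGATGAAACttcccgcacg
CARS1 (chr11:3057408-3057436, minus strand): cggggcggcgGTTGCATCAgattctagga
SLC7A1 (chr13:29595663-29595691, minus strand): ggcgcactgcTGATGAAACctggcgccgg
SLC3A2 (chr11:62881725-62881748, plus strand): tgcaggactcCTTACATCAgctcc
AARS1 (chr16:70289676-70289704, minus strand): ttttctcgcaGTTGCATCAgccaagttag
TARS1 (chr5:33440956-33440984, plus strand): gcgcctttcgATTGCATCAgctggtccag
IARS1 (chr9:92293693-92293721, minus strand): ttttcagcgcGTTGCATCAcctccgtgcg
NARS1 (chr18:57621804-57621832, minus strand): ctacgctctcTGATGCAACgccggaatcg
ATF3 (chr1:212565206-212565234, plus strand): aaggtcaggaTGATGGAAGgctgtcatat
BCAT1 (chr12:24949131-24949159, minus strand): gtcttcctgcTGATGCAATccgctaggtc
ASNS and SLC7A1 hold the same 9 letters, and AARS1, CARS1 and IARS1 share another 9, which NARS1 holds on the other strand. The differences of these 6 genes ranged from -0.34 for NARS1 to 1.33 for ASNS. The match began 68 bases before the start site in ASNS, 48 before in BCAT1, 188 before in AARS1, 191 before in ATF3, 3 before in CARS1 and 14 before in IARS1. It began 1, 7, 14 and 36 bases after the start site in TARS1, SLC7A1, NARS1 and SLC3A2.

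The 250 bases before the ASNS start site (chr7:97872409-97872658, minus strand) are given whole, as ASNS was the brightest gene of these lists with a 2-fold difference from both untreated arrays; the capitals mark the same match.
ASNS: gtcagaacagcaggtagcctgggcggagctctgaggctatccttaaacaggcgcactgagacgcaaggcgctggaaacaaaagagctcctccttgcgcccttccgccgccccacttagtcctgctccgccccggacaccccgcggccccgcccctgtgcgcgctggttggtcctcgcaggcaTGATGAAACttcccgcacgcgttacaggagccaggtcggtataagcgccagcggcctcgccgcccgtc

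The same lists were read on the arrays that had PonA besides ethanol. For the stress response list the median log2 difference from untreated cells was 0.63 with ethanol alone at day 1, 0.60 with ethanol and PonA at day 1, and 0.74 with ethanol and PonA at day 2 against untreated day 2. For the transport and charging list the values were 0.41, 0.25 and 0.57. The first and second of these comparisons share the untreated day 1 array. With PonA and ethanol against ethanol alone at day 1, the medians were -0.19 and -0.18. The third comparison shares no array with the first, and all genes had medians of -0.01, -0.01 and -0.03 in the 3 comparisons. The day 2 array also carried PonA, so PonA and ethanol cannot be told apart there.

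**Figure D4:**
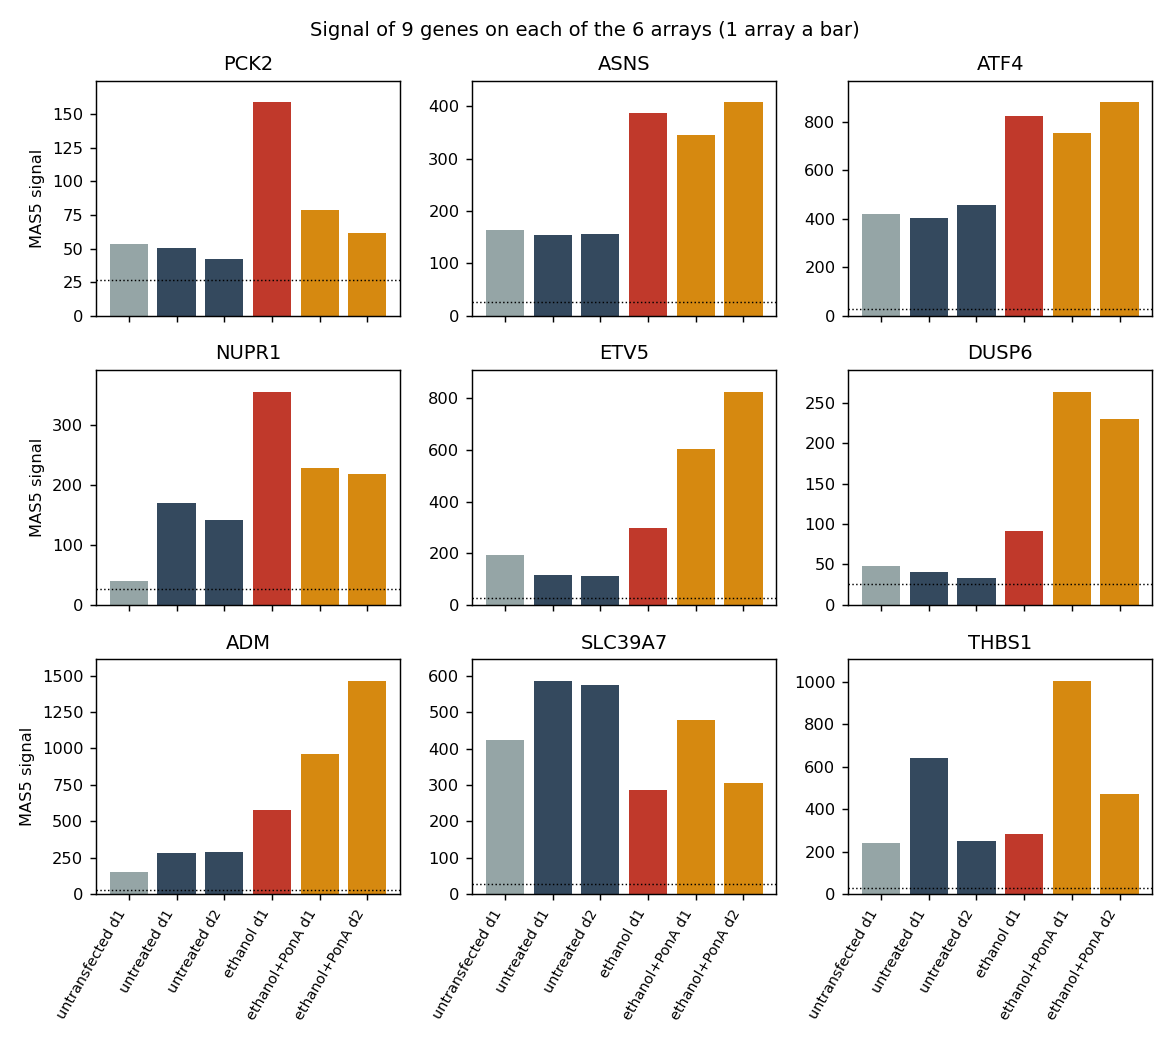
MAS5 signal of 9 genes on each of the 6 arrays, 1 bar an array, linear axes from 0; the dotted line is the highest of the arrays' floors. ASNS and ATF4 were high on all 3 arrays with ethanol (red and orange), PCK2 and NUPR1 highest with ethanol alone, ETV5, DUSP6 and ADM higher again with PonA, and THBS1 high on the untreated day 1 array and with PonA.

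Genes that report ERK signalling made up the other list with a raised median. ERK induces the ETS factors and its own inhibitors, the DUSP phosphatases and the Sprouty proteins. Of 16 genes fixed, 10 exceeded the floor on either array, which is a subset that leaves out dim members. 3 were at least 2-fold higher and none lower, beside 1% of all genes in each direction. 6 of the 10 were above 0, beside 49.1% of all genes, and the median was 0.45. ETV5 gave 297 with ethanol, 115 and 111 untreated, 195 untransfected, and 605 and 826 with ethanol and PonA. DUSP6, which inactivates ERK, gave 90.8 with ethanol, 40.5 and 33.8 untreated, 48.2 untransfected, and 264 and 229 with ethanol and PonA. Both stood between the arrays without ethanol and the arrays with PonA. DUSP1 gave 260.05 with ethanol and 122 untreated, but 205 untreated at day 2 and 258 untransfected, so the untreated day 1 array was the odd one.

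The other members of the ERK list did not share this order. SPRY2 was 0.66, HBEGF 0.48 and SPRED2 0.43 higher, all at signals under 90, while PHLDA1 stood at -0.02 and DUSP5 at -0.09. DUSP7 was the lowest at -0.38, and its second probe set was at -1.05 with 26.8 against 55.3. On the ethanol and PonA array of day 1 the list median was 1.72 over untreated and 1.35 over ethanol, and at day 2 it was 2.03 over untreated. The list's median was thus smaller with ethanol than with PonA, and with every member counted whether or not it passed the floor the ethanol median was -0.03.

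Beyond these lists, the bright genes higher with ethanol were few. ADM, the vasodilator peptide adrenomedullin, gave 577 with ethanol, 284 and 288 untreated, 149 untransfected, and 959 and 1465 with ethanol and PonA. DEPP1, a FOXO-regulated gene, gave 839 with ethanol, 377 and 471 untreated, 168 untransfected, and 929.9 and 1111 with ethanol and PonA. RRAS, a small GTPase related to RAS, gave 976 with ethanol, 476 and 510 untreated, 419 untransfected, and 941 and 897 with ethanol and PonA. On all 3 genes the arrays with ethanol were above the arrays without. The second RRAS probe set differed less, at 207 against 161 and 149. CYB5R1, a cytochrome b5 reductase, gave 504 against 259.8 untreated at day 1 but 564 untreated at day 2.

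The bright genes lower with ethanol were fewer. SLC39A7, the zinc exporter of the endoplasmic reticulum, gave 286 with ethanol against 587 and 575 untreated and 424 untransfected, and 479.6 and 306 with ethanol and PonA, a 2.06-fold difference. FAM50A gave 206 against 405 and 489 untreated, with 306 untransfected and 234 and 202 with ethanol and PonA. TAF15, an RNA-binding protein of the FET family, gave 498 against 969 and 789, with 515 untransfected and 569 and 406 with ethanol and PonA. Of these, FAM50A was lower on every array with ethanol than on any without, and SLC39A7 and TAF15 were not. LMNB1, lamin B1, gave 294 against 577 and 422, and 70.7 and 53.04 with ethanol and PonA. FAM50A, TAF15 and LMNB1 fell short of 2-fold against untreated day 1, at 1.96, 1.95 and 1.96.

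Besides SLC39A7, 2 bright genes were at least 2-fold lower than untreated at day 1, but not than untreated at day 2. THBS1, the matrix protein thrombospondin 1, gave 283 with ethanol and 640 untreated at day 1, but 251 untreated at day 2 and 242 untransfected, and 1005 and 473 with ethanol and PonA at day 1 and day 2. PLK2, a stress-induced kinase, gave 253 with ethanol and 529 untreated at day 1, but 311 untreated at day 2, 426 untransfected, and 489 and 589 with ethanol and PonA. PLK2 was lowest on the ethanol array, whereas THBS1 was lower still on the untransfected and untreated day 2 arrays. The other 2 THBS1 probe sets differed by -0.70 and 0.01.

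Dimmer genes that were 2-fold from both untreated arrays were of mixed function. SEMA5A, an axon guidance semaphorin, gave 89.0 with ethanol and was under the floor at 21.2 untreated on day 1, at least 3.38-fold higher, while its second probe set stood at -0.35. The first SEMA5A probe set gave 23.0 and 22.4 with ethanol and PonA, so it was high with ethanol alone only. CHST2, a sulfotransferase of cell surface glycans, gave 77.1 against 6.97 and 33.9 untreated, 106 untransfected, and 115 and 208 with ethanol and PonA. FKBP8, a mitochondrial immunophilin, gave 201 against 83.5 and 28.4, and 167 and 90.5 with ethanol and PonA. The homeobox gene HOXC4 gave 66.8 against 14.0 and 33.0, PRICKLE3 64.5 against 25.8 and 26.9, and CD300C 63.8 against 17.9 and 14.9. SLN, sarcolipin, gave 62.7 against 21.3 and 14.2, but 260.3 in untransfected cells and 13.6 and 14.2 with ethanol and PonA. Apart from FKBP8 the ethanol values lie within 4 times the floor.

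On the lower side, AKAP13 was at least 3.99-fold lower, with 21.9 under the floor against 102 and 56.5, though its second probe set differed by -0.17. ATN1 was at least 3.48-fold lower, at 17.1 against 88.6 and 116, and its second probe set was at -0.37. With ethanol and PonA, these AKAP13 and ATN1 probe sets gave 79.5 and 90.9, and 122 and 104. Neither was thus low on those arrays. EVX1, a homeobox gene, gave 34.6 with ethanol, 122 and 173 untreated, 49.8 untransfected, and 183 and 38.1 with ethanol and PonA, so it varied widely without following ethanol. EIF5A, a translation factor, gave 46.3 against 109 and 92.9 untreated, with 45.9 untransfected and 48.1 and 50.1 with ethanol and PonA. PSMC3IP, a recombination cofactor, gave 28.8 against 65.0 and 65.1 untreated, 55.2 untransfected, and 28.7 on both arrays with ethanol and PonA. PSMC3IP was thus low on each array with ethanol, near the floor. BFSP2, DOK2, TOP3A, ATF6B and AQP6 were 2.14-fold to 2.97-fold lower against untreated day 1, ATF6B and AQP6 as lower bounds, and the second TOP3A probe set stood at 0.05.

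The genes with the untreated day 1 array as the odd one included several with large folds. APBA3, an adaptor of the amyloid precursor protein, gave 124 with ethanol and 36.3 untreated at day 1 but 102 untreated at day 2. ACTA2, smooth muscle actin, gave 86.3 and 17.1 but 95.6 at day 2, PSMA7, a proteasome subunit, 114 and 36.1 but 109 at day 2, and HSPA1B, an inducible HSP70, 82.5 and 25.7 but 72.4 at day 2. SLC7A4 gave 87.8 and 27.3 but 70.8 at day 2, and GPR15 91.7 and 17.4 but 54.1 at day 2. On the lower side BAIAP3 gave 26.3 and 102 but 20.2 at day 2, RCVRN 18.2 and 84.0 but 34.2, NDUFA9 41.0 and 114 but 48.5, RAPGEF3 35.2 and 93.4 but 28.3, and TCN1 38.1 and 96.6 but 36.9. In each of these genes the untreated day 2 value lay nearer to ethanol than to untreated day 1, which is the rule that chose them.

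Other probe sets of the same genes gave a limited comparison. Of the 116 genes 2-fold apart, 18 had other probe sets above the floor, 21 in all. 15 of the 21 pointed the same way, and 1 of them, the second probe set of NUPR1, was also 2-fold apart. For genes 2-fold from both untreated arrays the figure was 4 of 6, and for genes with untreated day 1 as the odd one 7 of 9. The share pointing the same way over all genes was not counted, so these figures are descriptions.

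**Figure D5:**
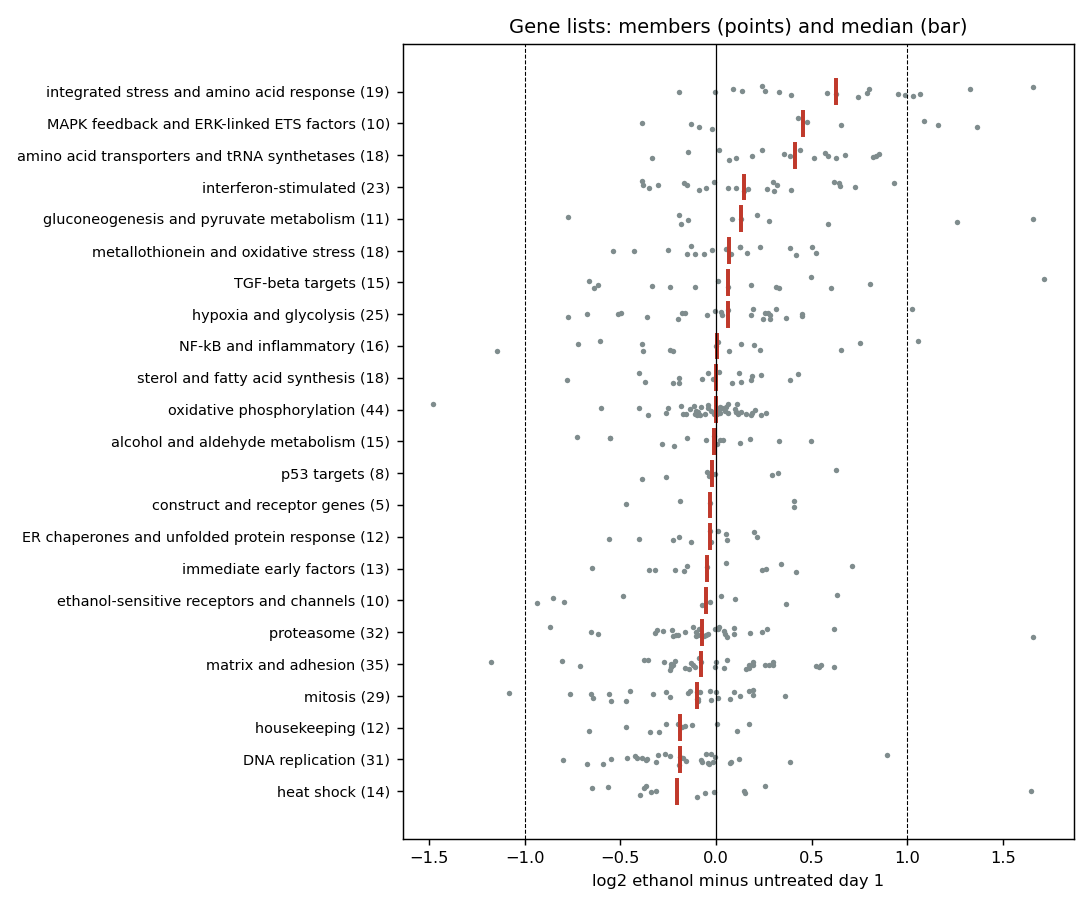
Log2 difference of the ethanol array from the untreated day 1 array for the members compared (points; number in brackets) and the median (red bar) of each of 23 gene lists; dashed lines mark 2-fold. The 3 lists at the top have medians of 0.63, 0.45 and 0.41, and the other 20 lie between -0.21 and 0.15.

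Genes that handle alcohol showed little difference. Of 27 genes of alcohol and aldehyde metabolism fixed, 15 were compared, none 2-fold apart, with a median of -0.01. Among them 7 were higher and 8 lower, beside 49.1% of all genes higher. ADH1A, ADH1B, ADH1C, ADH6, ADH7 and ALDH1A1 were under the floor on all arrays. CYP2E1, the ethanol-oxidising cytochrome, was the highest member at 0.50 as a lower bound, at 37.1 against 22.3. ALDH2, the mitochondrial acetaldehyde dehydrogenase, was the lowest at -0.72 as a bound, at 9.78 against 42.0 untreated at day 1. Untreated at day 2 ALDH2 gave 17.7, which is under the floor, as was its ethanol value. The lower ALDH2 value was thus not seen against untreated day 2. ADH5 was at 115 against 105 and CAT, catalase, at 425 against 418.

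Receptors and channels on which ethanol is known to act had 10 members compared of 30 fixed, none 2-fold apart, with a median of -0.05. ADCY7, an ethanol-sensitive adenylyl cyclase, was the highest at 0.63 and the glutamate receptor gene GRIA1 the lowest at -0.94. Against untreated day 2 those genes stood at -0.06 and 0.67, so neither kept its sign.

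Other stress lists lacked a raised median. Of 12 ER chaperone and unfolded protein response genes compared, none was 2-fold apart and the median was -0.03, from PDIA3 at -0.56 to CALR at 0.21. The heat shock list had 10 of 14 members lower, beside 2938 of all 5774 genes. Its median of -0.21 was the lowest of the 23 lists, with CRYAB at -0.65 and HSPA1B at 1.65 as its extremes. Immediate early factors had a median of -0.04, metallothionein and oxidative stress genes 0.07 and sterol and fatty acid synthesis genes 0.00, each with no member 2-fold apart. In all, 12 of the 23 lists had no member 2-fold apart and 19 had a median within 0.2 of 0.

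In the DNA replication list 26 of 31 genes were lower with ethanol, beside 2938 of all 5774 genes, none 2-fold, with a median of -0.19 against untreated day 1 and -0.62 against untreated day 2, and 26 were below both untreated arrays, against 30.9% of all genes. RRM2, a ribonucleotide reductase subunit, gave 80.9 against 141 and 175, and CDT1, the licensing factor, was highest at 0.89. In the mitosis list 20 of 29 were lower, again beside 2938 of all 5774 genes, with a median of -0.10 against untreated day 1 and -0.47 against untreated day 2. The untreated arrays themselves differed here, since the median difference of day 2 minus day 1 was 0.36 for mitosis and 0.44 for replication, beside -0.07 for all genes. TTK, a spindle checkpoint kinase, gave 63.6 against 135 and 92.3 and was the single mitotic gene 2-fold apart. Housekeeping genes were lower in 9 of 12 cases, again beside 2938 of all 5774 genes. Their median was -0.19, close to that of the replication list. TFRC, the transferrin receptor, was lowest among them at 530.2 against 839 and 961.

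The construct's own gene was not higher with ethanol. The brightest SYK probe set gave 64.1 with ethanol and 73.1 untreated at day 1, and the other 2 SYK probe sets were under the floor on both arrays. RXRA, a partner of the ecdysone receptor, gave 867 against 653 and 713.

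As a secondary measure, the ethanol term was fitted with limma over the 5 transfected arrays with terms for treatment and day. That fit has 1 residual degree of freedom, which is the difference of the PonA effect between the days and no spread between cultures. Of 7934 probe sets tested, 0 (0%) passed an adjusted p of 0.05 and 567 had an unadjusted p under 0.05; the smallest adjusted p was 0.436. The ethanol term was 1.63 ± 0.27 (SE) for PCK2, 1.38 ± 0.27 for ASNS, 1.04 ± 0.27 for ATF4, 1.49 ± 0.29 for ETV5 and 1.18 ± 0.27 for DUSP6. On log2(signal + 32) without a floor, the term was 1.19 for PCK2, 1.22 for ASNS, 1.28 for ETV5 and 1.09 for DDIT3. It was 1.23 for the second NUPR1 probe set. Genes outside these lists had larger terms, among them EVX1 (-1.72), the dimmer GJA1 probe set (-1.61), CHST2 (1.47) and ATN1 (-1.41). Terms of like size came from genes with untreated day 1 as the odd array, at 1.13 for GPR15 and -1.04 for THBS1. How many probe sets passed the adjusted p of 0.05 depended on the scale of the dim values, as given further below.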

How the data were processed

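Expression was measured on Affymetrix Human Genome U95 Av2 arrays, 1 per group, 6 in all. MAS5 is named in the submitters' processing notes; its version is not given in the sources used here, nor is a genome build. The deposited values are intensity on a linear scale, and the authors had scaled them: the mean without the outer 2% of probe sets at each end was 150.07 to 150.08 on every array. Of 12558 probe sets that are not controls, 10943 carry a single gene symbol (545 several, 1070 none), standing for 8226 genes, each by its probe set of highest mean signal.

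Signals were raised to the 40th percentile of their array and put on the log2 scale. With 1 array a side no test was made, and at least 2-fold apart was counted. The genes named are the 10 largest in each direction of those 2-fold from both untreated arrays, the 6 largest with 200 signal units on both arrays, the 5 largest with untreated day 1 as the odd one, and list members 2-fold apart or at an extreme. Further list members, PSMB9 and BST2 among them, and BCAT1 were named outside this rule. The members and the 23 gene lists and 6 marker lists were chosen with earlier results of these data known. The additive limma fit (limma 3.58.1, R 4.3.3; Benjamini-Hochberg) took probe sets exceeding the floor on 2 or more of 5 arrays and was tested on simulated data. Alternatives covered the floor, the filter, the scaling and the control array.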

Additional observations from a re-analysis of the deposited data

How the results depend on the processing

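The counts of probe sets 2-fold apart rest on the treatment of dim signals. They are given in the order higher, lower, 2-fold from both untreated arrays, and untreated day 1 the odd one, and were 83, 92, 49 and 81 as reported. They became 270, 352, 178 and 323 with the floor at the 25th percentile, 22, 7, 14 and 8 with it at the 60th, 26, 18, 11 and 25 on log2(signal + 32), and 52, 60, 31 and 46 where both arrays had to exceed the floor. With untreated day 2 as the control 211 were higher, and with the mean of both untreated arrays 45 were lower. Limma called 27 probe sets on log2(signal + 32) and 0 in the reported fit and its 3 other alternatives, with 473 to 583 at an unadjusted p under 0.05. Against untreated day 2, ACTA2 turned to -0.15, BAIAP3 to 0.18, RAPGEF3 to 0.32, TCN1 to 0.048 and THBS1 to 0.18; the cause was not tested. Quantile, loess and median scaling kept every count within 1.5 times, and the median of all probe sets within 0.02 of 0, a check added after seeing the data. The stress response list's median stayed between 0.60 and 0.79 and that of the transport and charging list between 0.39 and 0.58. No paired analysis was possible because each group has 1 array. Low signal over background limits the dim genes most.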

Other observations

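No gene of the interferon list was 2-fold apart. 14 of 23 were higher, beside 49.1% of all genes, with a median of 0.15 against untreated day 1. Against untreated day 2 the median was -0.03, and 7 of 23 were above both untreated arrays, beside 35.2% of all genes. TAP1, the highest member and a peptide transporter of antigen presentation, gave 234 with ethanol against 123 untreated at day 1 and 169.97 untreated at day 2. PSMB9, an immunoproteasome subunit, gave 298 against 194 and 292, and BST2, the virus-tethering protein, gave 60.4 against 36.4 and 47.8. Of the 9 lower members GBP1 was the lowest, at -0.39 as a bound, with 24.2 against 33.3 and 26.6.

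Among glycolysis and hypoxia genes, 15 of 25 were higher, beside 49.1% of all genes, and the median was 0.06. ADM was the single member 2-fold apart, while LDHA, lactate dehydrogenase A, gave 183 against 258 and 305, and the glucose transporter gene SLC2A1 gave 79.3 against 113 and 86.3.

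5 of the 17 bright probe sets 2-fold apart had no single gene symbol in the annotation. The largest of these gave 716 with ethanol, 228 untreated at day 1 and 554 untreated at day 2. GJA1, the gap junction protein connexin 43, had probe sets that disagreed in size: the brighter gave 402 with ethanol against 641 and 558 untreated, and the dimmer gave 6.35, under the floor, against 77.0 and 72.3. ID1, an inhibitor of bHLH factors, had 1 probe set at 1544 against 657 and 1207 and a brighter one at 5032 against 3311 and 4353.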
